A study of Homo sapiens with 2 samples.

Results

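Heme is made from glycine and succinyl-CoA in a chain of enzymes that begins and ends in the mitochondrion. ALAS1, in most tissues, and ALAS2, the X-linked form of red cell precursors, catalyze the first and rate-limiting step, and FECH inserts iron into protoporphyrin in the last. GATA1 is a zinc finger transcription factor of red cells, megakaryocytes, mast cells and eosinophils, and ALAS2 is among the erythroid genes that carry known GATA elements. The genes described here are 7 of the synthesis enzymes (ALAS1, ALAS2, ALAD, UROS, UROD, PPOX and FECH) and HMOX1, the inducible heme oxygenase, which breaks heme down and is not an enzyme of synthesis. They were chosen as the genes of this set whose symbol stands, with its distance to the start, in the annotation of a probe. All 8 were found, among 17280 genes on the arrays, and together they had 203 of 474411 genomic probes, all of which were kept.

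To find where GATA1 sits on promoters in leukemia cells of the megakaryocytic line, chromatin of untreated Meg-01 cells was pulled down with an antibody to the C-terminus of GATA1 (the IP) and, side by side from the same soluble chromatin, with normal goat IgG. Meg-01 is an established human megakaryoblastic line, and a single line in a single state was studied, with no GATA1-depleted cells on these arrays. IP DNA was labeled with Cy5 and IgG DNA with Cy3, and both were hybridized together to a set of 2 promoter arrays that carry different probes, called chIP1 and chIP2. Each probe therefore has 1 hybridization, without a replicate or a dye swap, so that no p-value was computed and no difference below was tested against replicate error. Values are log2(IP/IgG) with the median of each array at 0, and a window is the mean of 3 adjacent probes. A window at 1 or above (2-fold) is called IP side, and one at -1 or below IgG side. Errors written with ± are those that the scanner software attached to the ratio of each spot, carried to windows and runs as if spots were independent, and they hold no biological spread. ALAS1, ALAD, UROD and PPOX lie on chIP1 and ALAS2, UROS, FECH and HMOX1 on chIP2, and positions are given as the arrays give them, whose genome build is not named in the sources used here.

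Signals were low on both arrays, with a median mean signal of 543 and 544 in the IP channel against 342 and 340 for negative control spots. Over 3548 control probes with 1 spot on each array, the difference between arrays had an SD of 0.28. This SD was 0.62 for the 549 probes up to the 10th percentile of intensity and 0.09 for the 2002 probes above the 50th. The mean of all probes was highest just around gene starts, at 0.28 on chIP1 and 0.24 on chIP2. Neighboring probes lay 177 and 178 bp apart at the median, closer than the length of the sonicated fragments, so that adjacent probes can report the same DNA.

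GATA1 recognizes short GATA words in DNA, and the promoters of these genes differed in whether they hold one. RefSeq promoter windows of GRCh38.p14, from 250 bases before to 50 bases after the annotated start, were found for 6 of the 8 genes in 8 windows (ALAD and PPOX have more than 1 start), and UROS and HMOX1 had no entry. The words searched, on both strands, were AGATAA and its variant AGATAG, and those with another first base, TGATAA and likewise TGATAG. All are equally long, so that none holds another. A word was present in windows of 3 genes, ALAS2, ALAD and PPOX, and absent from those of ALAS1, UROD and FECH. Such a word was held by 25% of all 35116 promoter windows listed, and 29.1% of the 27305 genes they belong to had it in at least 1 window. The promoters of ALAS2 and ALAS1 are printed because these genes are contrasted below, and those of ALAD and PPOX because they hold the other words. Capitals mark the word.

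ALAS2, GRCh38.p14 chrX:55030928-55031227, minus strand: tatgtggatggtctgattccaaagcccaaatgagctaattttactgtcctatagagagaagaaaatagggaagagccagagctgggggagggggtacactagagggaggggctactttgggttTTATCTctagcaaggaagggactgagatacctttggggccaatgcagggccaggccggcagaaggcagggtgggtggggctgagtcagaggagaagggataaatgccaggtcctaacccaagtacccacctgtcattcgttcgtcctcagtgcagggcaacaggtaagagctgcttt
ALAS1, GRCh38.p14 chr3:52197833-52198132, plus strand: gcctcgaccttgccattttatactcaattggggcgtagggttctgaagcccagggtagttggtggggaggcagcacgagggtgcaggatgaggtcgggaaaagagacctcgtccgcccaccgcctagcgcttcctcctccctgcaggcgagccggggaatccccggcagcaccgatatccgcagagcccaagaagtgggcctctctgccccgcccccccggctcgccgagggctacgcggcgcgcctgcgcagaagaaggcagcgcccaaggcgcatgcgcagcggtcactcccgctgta
ALAD, second start, GRCh38.p14 chr9:113401071-113401370, minus strand: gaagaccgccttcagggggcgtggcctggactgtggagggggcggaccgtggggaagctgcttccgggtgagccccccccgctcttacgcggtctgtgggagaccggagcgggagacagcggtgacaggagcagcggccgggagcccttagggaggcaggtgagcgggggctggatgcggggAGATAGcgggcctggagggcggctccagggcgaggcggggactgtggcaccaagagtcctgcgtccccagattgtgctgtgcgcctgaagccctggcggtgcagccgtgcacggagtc
PPOX, second start, GRCh38.p14 chr1:161166396-161166695, plus strand: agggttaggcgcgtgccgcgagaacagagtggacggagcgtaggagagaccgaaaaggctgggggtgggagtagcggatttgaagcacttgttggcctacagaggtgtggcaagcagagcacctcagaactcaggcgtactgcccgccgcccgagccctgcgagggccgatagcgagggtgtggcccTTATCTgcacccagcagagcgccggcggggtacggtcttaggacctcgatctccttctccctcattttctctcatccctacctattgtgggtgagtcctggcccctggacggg

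In ALAS2 the word reads TTATCT, the reverse complement of AGATAA, with its first base at -127 from the start. In PPOX the same word begins at -63, and in ALAD AGATAG begins at -68 on the strand of the gene. A word is a match of letters and not a measured site. The arrays and the promoter table use positions that were not converted into each other, so the words could not be laid onto single probes.

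Of the 8 genes, 5 (ALAS1, ALAS2, UROS, UROD and PPOX) had at least 1 window on the IP side, and 57.1% of 17056 genes on the arrays did. An IgG side window was found in 3 of the 8 (ALAS2, ALAD and FECH), and in 52.9% of all genes. Both counts of genes were thus near the shares of the arrays as a whole. The median of the highest window was 1.49 over the 8 genes and 1.09 over all genes, and the median of the lowest window was -0.93 and -1.05. By windows rather than genes, 21 of the 183 windows of the 8 genes (11.5%) were on the IP side, against 7.62% of all 415409 windows, and 6 of 183 (3.28%) were on the IgG side, against 9.65%. Adjacent windows share probes, and the 21 lie in the 5 genes named above, so that windows are not separate units. The median of the mean over all probes of a gene was 0.21 for the 8 genes and 0.01 for all. A run of 3 or more neighboring probes that each passed 2-fold toward the IP was found in the same 5 genes, against 21.9% of all genes, and a run toward IgG in ALAS2 and FECH, against 29.1%. Runs were chosen as a measure after the values of these genes were seen, so these shares are description only.

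**Figure D1:**
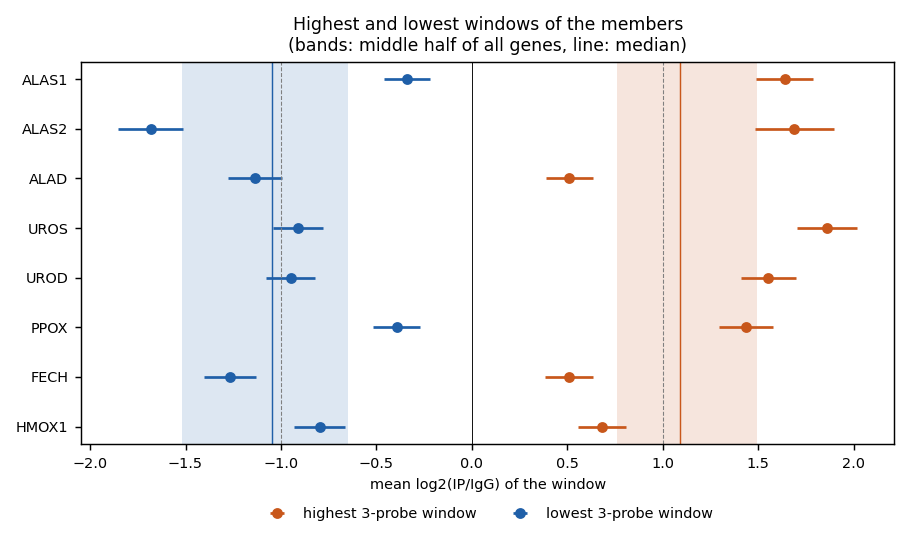
Highest (orange) and lowest (blue) 3-probe window of each gene on the log2(IP/IgG) axis; bars are the error given by the scanner software, shaded bands span the 25th to 75th percentile of all genes, solid lines their medians and dashed lines 2-fold. The highest windows of ALAS1, ALAS2, UROS, UROD and PPOX lie between 1.44 and 1.86, and those of ALAD, FECH and HMOX1 between 0.51 and 0.68.

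The 8 genes split by their highest windows. UROS had the highest at 1.86 ± 0.16, followed by ALAS2 at 1.69 ± 0.21, ALAS1 at 1.64 ± 0.15, UROD at 1.55 ± 0.14 and PPOX at 1.44 ± 0.14. Neighbors in this order differed by less than their summed scanner errors, and the order among these 5 changed with the processing. With normexp it was UROD at 1.71, PPOX at 1.65, UROS at 1.58, ALAS1 at 1.53 and ALAS2 at 1.36, and with windows of 5 probes ALAS1 was highest at 1.38 and ALAS2 lowest of the 5 at 0.82. HMOX1 followed at 0.68 ± 0.13, and ALAD and FECH were both at 0.51, with errors of 0.12 and 0.13. Within its own array, the highest window of a gene stood at percentile 89.1 for UROS, 84.6 for ALAS2, 80.3 for ALAS1, 76.4 for UROD and 70.8 for PPOX. The gap between PPOX and HMOX1 was wider than these errors, and HMOX1, FECH and ALAD stood at percentiles 22.1, 12.8 and 10.1. The width of the gap depended on the setting. With loess on intensity PPOX was at 0.98 and HMOX1 at 0.75, and with windows of 5 probes ALAS2 was at 0.82 and HMOX1 at 0.59. With single probes PPOX was at 1.73 and FECH at 1.56. With normexp the gap stayed wide, with ALAS2 at 1.36 and HMOX1 at 0.64.

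**Figure D2:**
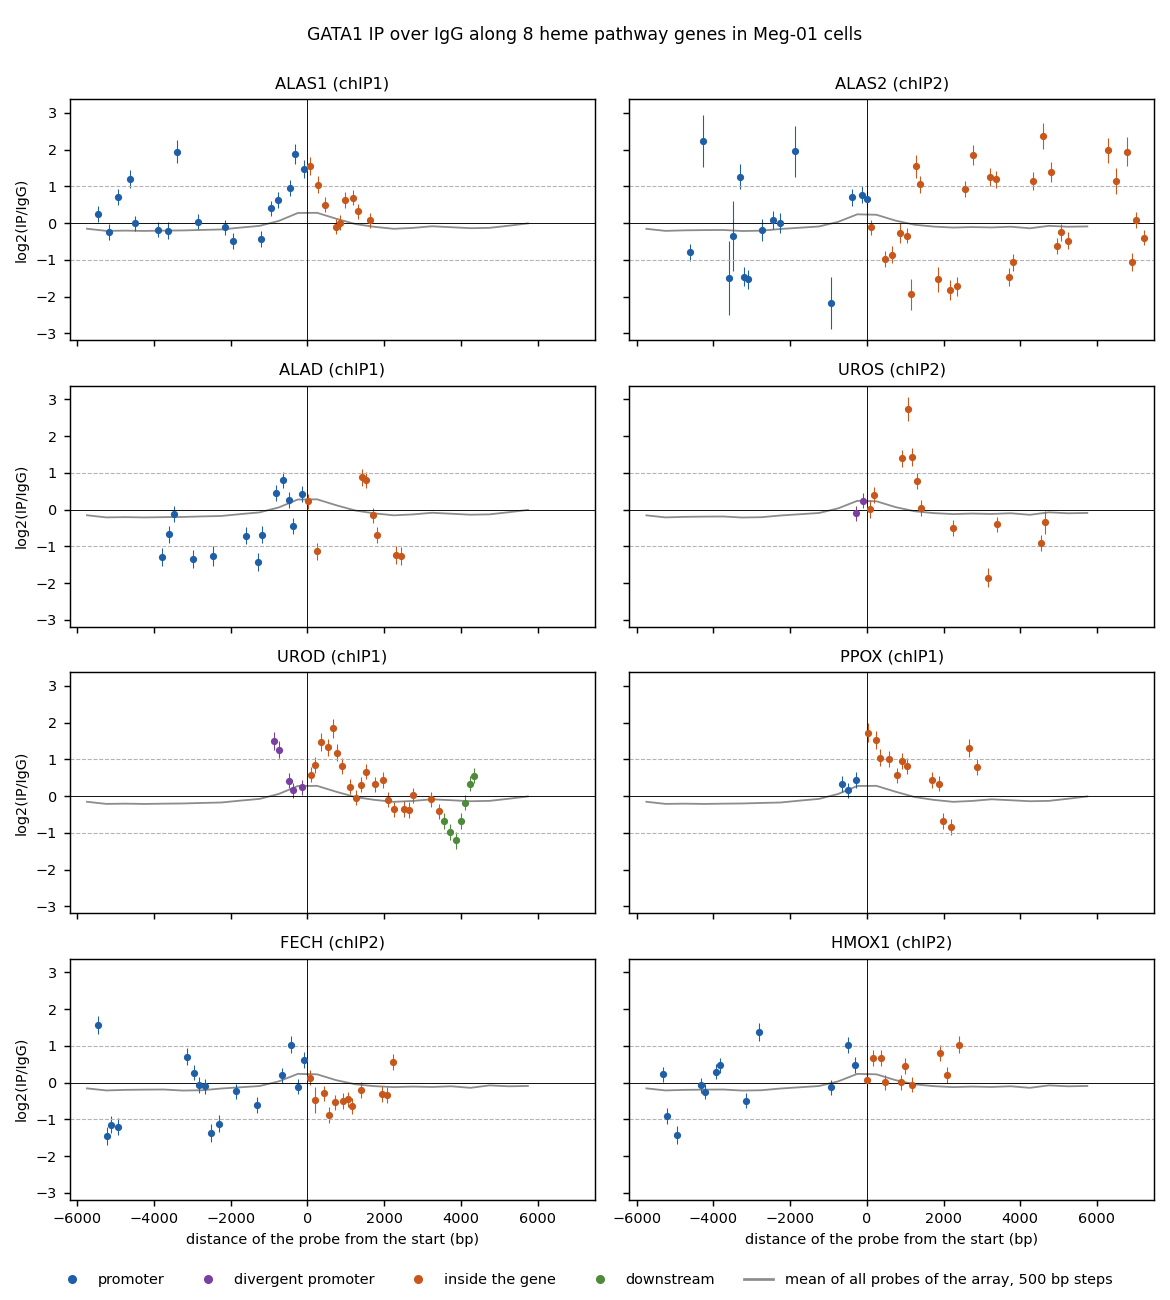
Every kept probe of the 8 genes by distance from the start (bp, negative upstream) against log2(IP/IgG); colors give the location class of the array, bars the scanner error, gray lines the mean of all probes of that array in 500 bp steps and dashed lines 2-fold. ALAS1 and PPOX rise at or just beside the start, UROD and UROS further inside the gene, and ALAS2 swings between both sides over its whole length.

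ALAS1, the housekeeping enzyme of the first step, had its IP signal at the start itself. It had 26 probes from -5468 to 1628 bp, and the 4 probes at -315, -81, 67 and 266 bp read 1.88, 1.48, 1.55 and 1.05. They form the one run past 2-fold of this gene, at chr3:52206818-52207471, with a mean of 1.49 ± 0.12. The values fell off on both sides of this run. Upstream of it the probe at -464 bp read 0.95 and the one at -957 bp 0.40, and downstream the probes at 446 and 739 bp read 0.51 and -0.10. No window of ALAS1 was on the IgG side, and its lowest was -0.34 ± 0.12. Further upstream, the probe at -4623 bp read 1.20, between neighbors at 0.72 and -0.01, and the probe at -3402 bp read 1.94, between neighbors at -0.20 and 0.04. The latter lay at intensity percentile 11.3. The 11 probes within 1000 bp of the start had a mean of 0.82 (SD 0.63), at percentile 91.9 of 7645 genes of chIP1 with at least 5 such probes, whose median was 0.25. The promoter of ALAS1 printed above holds none of the GATA words searched.

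ALAS2, the erythroid enzyme of the same step, had no IP side window near its start. Its 3 probes just upstream, at -396, -114 and -7 bp, read 0.70 ± 0.23, 0.77 ± 0.23 and 0.67 ± 0.22, and the next probe inside, at 109 bp, read -0.11 ± 0.21. These 3 probes stood together above the mean of all probes at that distance, 0.24, and none of them reached 2-fold. They lay at intensity percentiles 19.0, 24.6 and 34.2, and with normexp they read 0.27, 0.28 and 0.60. The probes at 468 and 648 bp lay on the IgG side of 0, at -0.98 and -0.86. The mean of the 8 probes within 1000 bp was -0.28 (SD 1.03), at percentile 14.2 of 7908 genes of chIP2. A faint probe at -939 bp, at intensity percentile 1.31, read -2.17 ± 0.71 and is among these 8. It was the lowest of them and accounts for most of the distance of their mean from 0. With normexp this probe read -0.78, and the mean of the 8 was -0.15.

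Inside the gene, ALAS2 had 3 runs past 2-fold toward the IP. The brightest, at chrX:54937033-54937683, held the probes at 2772, 3206 and 3370 bp, which read 1.85, 1.26 and 1.20, with a mean of 1.43 ± 0.14. The probe before it, at 2555 bp, read 0.93. The annotation of these probes also names a cDNA whose start lies 3119 bp inside the gene as counted from the RefSeq start, which falls within this run. The other further start that they name, a transcript beginning at 4978 bp, falls in no run, and the probes beside it at 4954 and 5064 bp read -0.63 and -0.25. The other runs lay at 4338 to 4806 bp, with a mean of 1.63 ± 0.17, and at 6292 to 6773 bp, with a mean of 1.69 ± 0.21, and the last of these is the highest window of the gene. The runs differed in how bright their probes were: the mean intensity percentile was 63.0 in the run at 2772 bp, 10.5 in that at 4338 bp and 5.01 in that at 6292 bp. With normexp, which models and removes background before the ratio is taken, the run at 2772 bp kept a mean of 1.36, and the other runs came to 0.24 and -0.12. The part of low signal in these values was not tested.

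Between its start and the first of these runs ALAS2 had the lowest window of the 8 genes. The probes at 1861, 2174 and 2350 bp read -1.53, -1.81 and -1.71, a run toward IgG with a mean of -1.68 ± 0.17 at chrX:54938053-54938601. It kept a mean of -1.05 with normexp. The probes at 3696 and 3800 bp, on the other side of the bright run, read -1.47 and -1.07 and were themselves bright, at intensity percentiles 71.2 and 80.4. The bright IP run of ALAS2 was thus flanked on both sides by probes past 2-fold toward IgG.

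**Figure D3:**
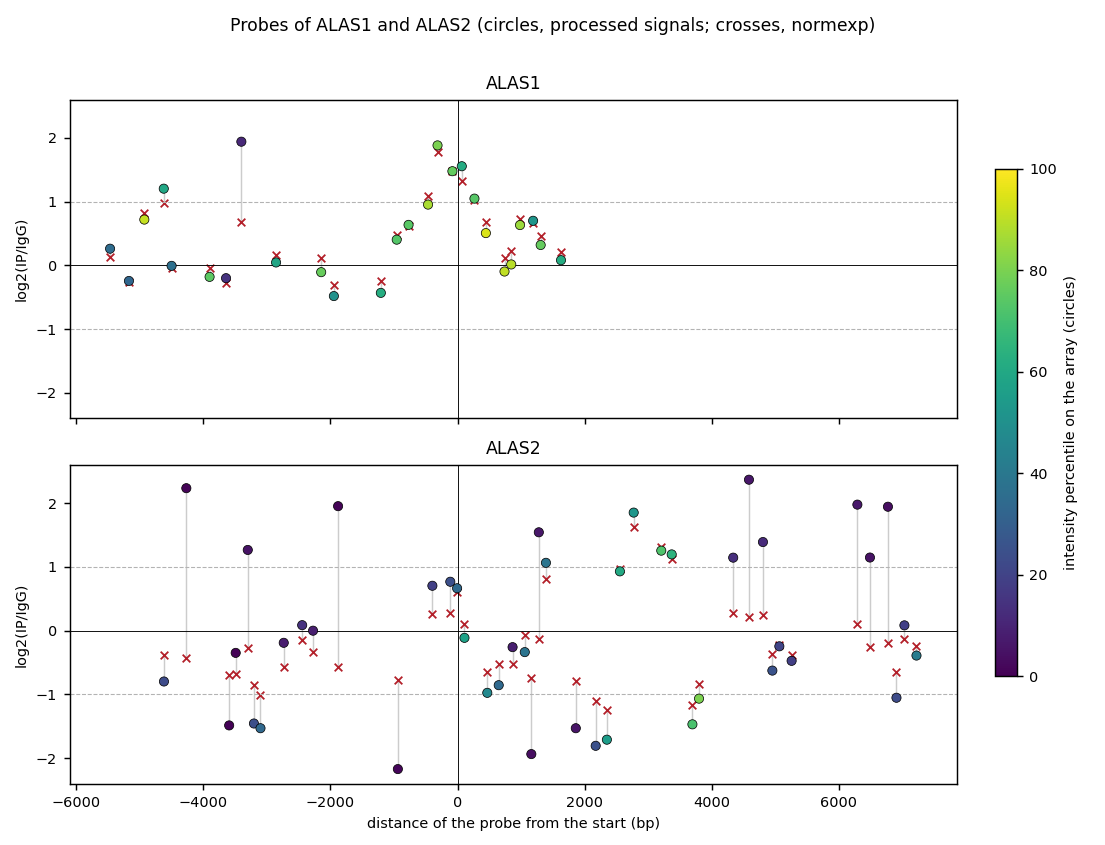
Probes of ALAS1 (chIP1) and ALAS2 (chIP2) by distance from the start (bp) against log2(IP/IgG); circles are the processed signals colored by intensity percentile on the array, crosses the normexp values of the same probes, and dashed lines 2-fold. The rise around the start of ALAS1 and the run at 2772 to 3370 bp of ALAS2 are nearly the same in both, while dark circles of ALAS2 far from 0 have crosses near or below 0.

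The contrast of ALAS2 with ALAS1 depended on what was compared, and it crosses arrays that were centered separately, between which control probes differed by 0.08 at the median. The highest window was taken from 40 windows in ALAS2 and 24 in ALAS1, and more windows alone favor a higher maximum. The highest windows differed by 0.05 ± 0.26, less than the scanner error. This difference was 0.36 with the distance trend removed, 0.43 with single probes, -0.56 with windows of 5 probes, in which ALAS2 fell to 0.82, and -0.93 with windows centered within 1000 bp of the start, where ALAS2 reached 0.71. The mean of all probes was 0.06 (SD 1.29, n = 44 probes) in ALAS2 and 0.48 (SD 0.70, n = 26 probes) in ALAS1, a difference of -0.42 with a standard error over probes of 0.24, in which probes are not replicates. Within 1000 bp of the start it was -1.10, with a standard error over probes of 0.41, and the faint probe of ALAS2 at -939 bp adds to its size. Near the start ALAS1 was thus the higher of the pair by each of these values, and over the whole locus the sign and size of the difference between highest windows varied with the setting.

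The genes also differed in spread and brightness. Of the 44 probes of ALAS2, 14 passed 2-fold toward the IP and 11 toward IgG, and in ALAS1 these counts were 6 and 0 of 26. The SD of its probes put ALAS2 at percentile 92.4 of chIP2 and ALAS1 at percentile 23.0 of chIP1. The median intensity percentile was 19.6 in ALAS2, with 16 probes below the 10th, and 73.5 in ALAS1, with 0. With normexp the SD was 0.66 in ALAS2 and 0.57 in ALAS1, and the means were -0.21 and 0.48. Leaving out probes below the 10th percentile of intensity, a choice made after the values were seen, moved the highest window of ALAS2 to 1.43, that of the bright run, and its difference from ALAS1 to -0.20.

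ALAD, which joins the products of the first step into porphobilinogen, stayed below 2-fold toward the IP at every one of its 21 probes. Its highest probes, at 1413 and 1531 bp, read 0.88 and 0.81. Around the start the probes at -138 and 23 bp read 0.43 and 0.23, near the mean of all probes there, 0.28. The next probes on each side, at -387 and 244 bp, lay below it at -0.45 and -1.14. The probes at -490, -625 and -823 bp read 0.27, 0.80 and 0.45, a window of 0.51 nearly level with the highest of the gene. Further upstream, ALAD leaned toward IgG. The 8 probes beyond 1000 bp upstream were all below 0, with a mean of -0.94, and its lowest window, -1.13 ± 0.14, was centered at -1600 bp. The mean of all its probes was -0.41, at percentile 11.7 of chIP1, and its lowest window came to -0.77 with normexp. One of the promoters of ALAD holds a GATA word, and none of its windows near the start exceeded 0.51.

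UROS closes the chain of porphobilinogen units into a ring and is mutated in congenital erythropoietic porphyria. It held the highest window of the 8 genes with the processed signals. The probes at 920, 1066 and 1176 bp inside the gene read 1.39 ± 0.24, 2.75 ± 0.33 and 1.44 ± 0.25, a run at chr10:127500552-127500860 with a mean of 1.86 ± 0.16. The value at 1066 bp was the highest of all 203 probes. Toward both sides it dropped to 0.78 at 1310 bp and 0.39 at 188 bp. The probes at -100 and -287 bp, which the array places in a divergent promoter shared with BCCIP, read 0.25 and -0.10. The signal of UROS thus lay inside the gene and not at the shared start, and it kept 1.58 with normexp. The lowest probe, at 3165 bp, read -1.85, with neighbors at -0.39 and -0.49, and no window of the gene reached the IgG threshold.

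UROD removes carboxyl groups from uroporphyrinogen. Its 32 probes were the brightest of the set, at a median intensity percentile of 94.7. The probes at 352, 526, 662 and 763 bp read 1.48, 1.33, 1.84 and 1.18, a run at chr1:45147249-45147707 with a mean of 1.46 ± 0.12. The values at the start itself were lower, with 0.24 at -149 bp and 0.59 at 82 bp. A second rise lay upstream, where the probes at -883 and -733 bp, in the divergent promoter shared with HECTD3, read 1.5 and 1.27, and these cannot be assigned to either gene. Between the rises the probes at -477 and -368 bp read 0.43 and 0.16. The 12 probes within 1000 bp had a mean of 0.97 (SD 0.54), at percentile 96.0 of chIP1. Downstream of the gene the ratio fell to -1.19 at 3884 bp. The run came to 1.64 with normexp, and the highest window of UROD to 1.20 with loess on intensity.

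The following step belongs to CPOX, which is outside the 8 genes. Its highest window, 2.11 ± 0.16, was centered at -241 bp on chIP1.

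PPOX oxidizes protoporphyrinogen to protoporphyrin. Its signal began at the start and ran into the gene, with 1.73 at 31 bp, 1.53 at 240 bp, 1.05 at 348 bp and 1.01 at 577 bp. This run, at chr1:157949275-157949870, had a mean of 1.33 ± 0.12, and the 3 probes upstream read 0.33, 0.16 and 0.44. The change across the start was therefore from 0.44 to 1.73 between neighboring probes. Further inside, the single probe at 2664 bp read 1.32, between neighbors at -0.84 and 0.80. With loess it read 1.37, and the probe at 31 bp read 1.27. The probes of the run were among the brightest of the array, at a mean intensity percentile of 98.7. With loess on intensity the highest window of PPOX, 1.44, came to 0.98 and lost 2-fold, and with normexp it came to 1.65. The mean over all 16 probes was 0.62 (SD 0.70), at percentile 97.7 of chIP1, and no window was on the IgG side. The second start of PPOX has a GATA word in the promoter printed above, and which of its starts the array counts from is not given.

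FECH inserts iron into protoporphyrin and so completes heme. It had no IP side window. Around the start the probes at -425, -259, -103 and 65 bp read 1.03, -0.11, 0.61 and 0.14, and the highest window was 0.51 ± 0.13. Single high probes stood alone there. From 196 to 2070 bp inside the gene all 10 probes were below 0, between -0.87 and -0.20. The only run lay far upstream, where the probes at -5224, -5112 and -4943 bp read -1.46, -1.15 and -1.20, an IgG side run at chr18:53409909-53410238 with a mean of -1.27 ± 0.14. The next probe upstream, at -5474 bp, read 1.56 ± 0.25, on the other side. With normexp the IgG run came to -0.96.

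HMOX1 opens the heme ring and yields biliverdin, iron and carbon monoxide, and it is induced by heme. None of its 18 windows passed 2-fold in either direction. The highest was 0.68 ± 0.13, centered at 2084 bp, and the lowest -0.80 ± 0.13, centered at -4954 bp. Its highest probe, at -2822 bp, read 1.39 ± 0.25 and had its nearest neighbor, at -3147 bp, at -0.49, and the probe at -494 bp read 1.02 ± 0.23. Near the start the probes at 14, 150 and 377 bp read 0.08, 0.67 and 0.67. The mean within 1000 bp was 0.37 (SD 0.39, n = 9 probes), above the chIP2 median of 0.20 over genes and at percentile 66.6.

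Compared near the start alone, windows centered within 1000 bp of it passed 2-fold toward the IP in ALAS1, UROS, UROD and PPOX, 4 of the 8 genes, against 33.5% of 16605 genes. None of the 8 passed toward IgG there, against 17.4%. The means near the start were 0.97 for UROD, 0.86 for PPOX and 0.82 for ALAS1, all on chIP1, and 0.39 for UROS, 0.37 for HMOX1, 0.08 for ALAD, -0.08 for FECH and -0.28 for ALAS2. The place of ALAS2 below FECH rests on its faint probe at -939 bp, which read -2.17. When the mean of all probes at the same distance was taken off, the highest windows of ALAS1, UROD and PPOX came to 1.36, 1.38 and 1.16 and stayed past 2-fold.

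The other genes of heme and iron handling were described as 4 lists with 31 genes, all of which had windows. An IP side window was found in 16 of them (51.6%), and an IgG side window in 13 (41.9%), against the 57.1% and 52.9% of all genes. The median of the highest window was 1.02, and that of all genes 1.09. CPOX, the enzyme of synthesis among them, was on the IP side. So were 8 of 11 mitochondrial carriers, iron-sulfur genes and regulators, 5 of 12 genes of iron uptake, storage and sensing, and 2 of 7 genes of heme breakdown and transport. In 13 of the 16, the highest window stayed past 2-fold with loess, with normexp and when both channels had to be well above background. Taken singly, these settings gave an IP side window in 58.3%, 33.1% and 56.0% of all genes. The share of all genes that passed them together was not computed, so the 13 cannot be set against it.

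Among these 13, the highest window was that of TF, the plasma carrier of iron, at 2.86 ± 0.20, centered at 665 bp, with 1.53 by normexp. STEAP3, which reduces iron in endosomes, followed at 2.17 ± 0.17, with 1.56 by normexp. Both lay at a low to middle intensity, at intensity percentiles 25.2 and 42.9. GLRX5, which takes part in iron-sulfur assembly, reached 2.02 ± 0.16, and SLC25A37, the mitochondrial iron importer, 1.99 ± 0.16. These were near the starts of their genes, and SLC25A37 kept 2.18 with normexp. ABCB6, a porphyrin transporter, reached 1.93 ± 0.16, HMOX2, the constitutive heme oxygenase, 1.49 ± 0.15, and FTL, the ferritin light chain, 1.46 ± 0.15. SLC25A38, a mitochondrial glycine carrier, followed at 1.42 ± 0.14 and CLPX, a mitochondrial unfoldase that acts on the enzyme of the first step, at 1.31 ± 0.14.

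**Figure D4:**
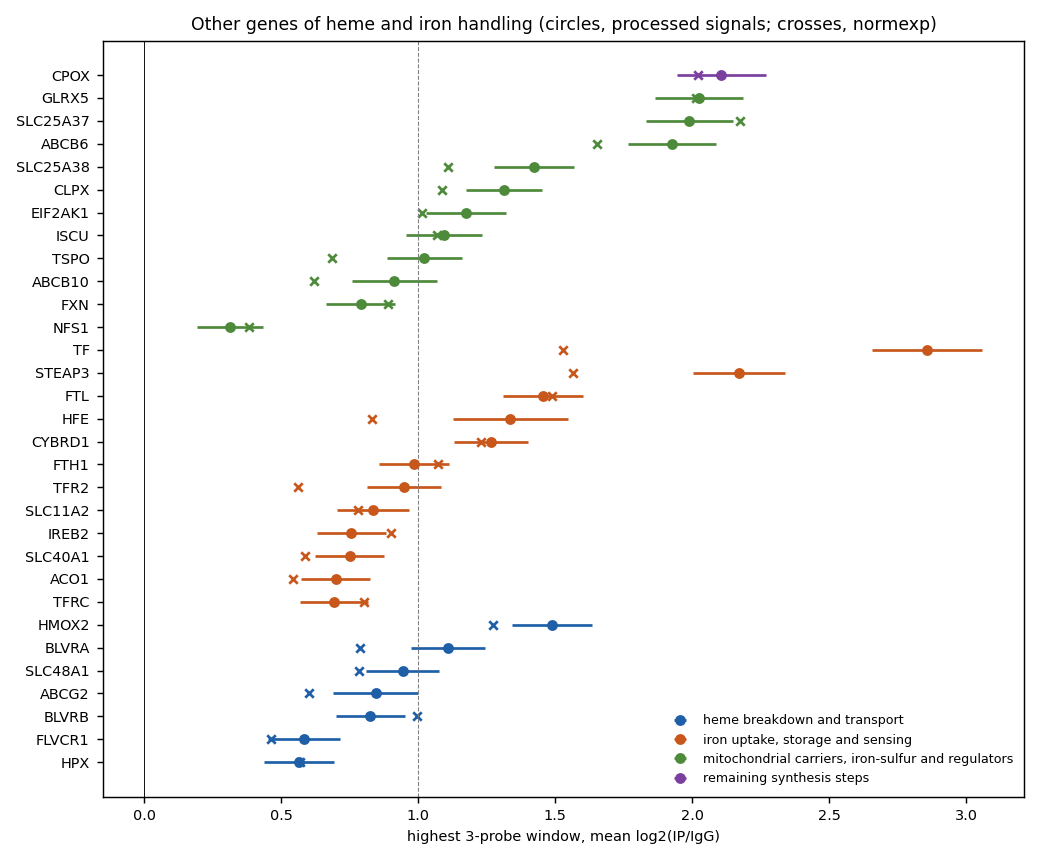
Highest 3-probe window, mean log2(IP/IgG), of 31 other genes of heme and iron handling, colored by list; circles with scanner errors are processed signals, crosses the same gene's highest window with normexp, and the dashed line is 2-fold. CPOX lies past the line at 2.11, and TF is highest at 2.86 with its cross at 1.53.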

How the data were processed

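GATA1 IP and IgG pull-down DNA of untreated Meg-01 cells were compared on a set of 2 promoter arrays with different probes, 1 hybridization each. The authors deposited the scanner output. Per the file headers, intensity values came from Agilent Feature Extraction 9.5.3.1, and the deposited processed intensities are corrected with fitted spatial surfaces, with no subtraction of local background, and dye-normalized linearly within each array, with surrogates for signals near background. The deposited log10 ratio has the IP (Cy5) over IgG (Cy3), with an error from the model of the scanner software, and the series matrix repeats these log10 values. The study normalized with intra-array lowess and inter-array medians and called peaks with the Whitehead error model, none of which was used here.

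From the deposited processed intensities, log2(IP/IgG) was taken and the median of each array was set to 0. Control spots and non-uniform spots were dropped, as were probes that neither channel showed well above background. Of 237210 and 237201 genomic probes 237004 and 236864 remained. A window held a probe and its neighbor on each side, 3 probes in all, each neighbor at most 1000 bp away, and it belonged to each gene annotated on 1 of its probes. The signed distance to a start is that of the array. BAK1 and SKIP, which had windows on both arrays, were counted once for each. Alternatives were loess on intensity (span 0.3) and normexp (offset 50) with limma 3.58.1 in R 4.3.3, the series values, other filters, windows and thresholds, and removal of the mean of all probes at the same distance in 500 bp steps. Other steps used Python 3.11.15, pandas 2.3.3 and numpy 2.4.6, and the window step was tested on simulated data.

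The genes, lists and rules were chosen with earlier results of these data known. Besides the 8 genes, the text names CPOX, neighbors that share probes, and up to 10 listed genes with a highest window past 2-fold in the processed, loess, normexp and both-channel settings. Promoters are RefSeq sequences of GRCh38.p14. No probe sequences were used here. Some listed genes are not reported here.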

Additional observations from a re-analysis of the deposited data

How the results depend on the processing

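No paired analysis was possible because each probe had 1 hybridization, so that samples were not tested. The count of 5 genes on the IP side came to 3 at a threshold of 3-fold (20.6% of all genes), 6 at 1.5-fold (85.0%) and 7 with single probes (86.1%). It was 4 with loess (58.3%) and with windows of 5 probes (34.6%), and 5 with normexp (33.1%). The count of 3 genes on the IgG side came to 1 with normexp (23.9% of all genes), 6 with single probes (81.0%), 1 with windows of 5 probes (34.3%), 6 at 1.5-fold (78.4%), 1 at 3-fold (22.3%) and 0 near the start (17.4%), and to 4 with loess (49.9%). ALAS2 minus ALAS1 by highest window, 0.05, came to 0.43 with single probes, -0.56 with windows of 5 probes, 0.36 with the distance trend removed and -0.93 near the start. By the mean of all probes, -0.42, it came to -0.69 with normexp and -1.10 near the start. The cause was not tested. The highest window of a gene was chosen anew under each setting, so that its value can come from another stretch, as for ALAS2 with normexp. Below 2-fold came PPOX, at 0.98 with loess, and ALAS2, at 0.82 with windows of 5 probes, and above it came FECH, at 1.56, and HMOX1, at 1.39, both with single probes. Runs and the filter on probes below the 10th percentile of intensity were chosen after the values were seen. With raw signals near those of the negative control spots and 1 hybridization, ratios of dim probes, 16 of the 44 of ALAS2 among them, are the least certain values given.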
